A study of Drosophila melanogaster with 8 samples.

Results

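Male and female prepupae of the bap170;bap180 double mutant of Drosophila melanogaster were compared across all genes on 2 arrays of males and 2 arrays of females, which are 4 of the 8 arrays of the study. The arrays were chosen by their titles. Each array held RNA of 1 whole white prepupa, at 0 h after puparium formation (APF), when the larva stops moving and metamorphosis begins. The groups were double mutant males, double mutant females, wild type males and wild type females, with 2 arrays each, and wild type was the strain w1118. The mutants are labelled bap170;bap180 with no allele names, and the wild type arrays carry neither mutation by their labels. Bap170 and Bap180, whose gene is now named polybromo, are subunits found in PBAP, which is one version of the SWI/SNF complex Brahma that moves and ejects nucleosomes. The question here is which transcripts differ between the sexes when both subunits are mutated, and whether that difference departs from the one in wild type.

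At this stage the gonad of a male holds primary spermatocytes, which switch on a large set of genes little used elsewhere, for the sperm tail, for sperm chromatin and for testis copies of housekeeping proteins. That programme is driven by testis forms of the MuvB/MMB complex (tMAC) and of TFIID (the tTAFs). In a female the gonad is still a small immature ovary. Sex itself is set in every cell by a splicing cascade in which Sxl acts on tra, and tra on dsx, while msl-2 is part of the complex that raises X transcription in males. Because whole animals were measured, fewer cells of a type and less RNA per cell cannot be told apart.

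Values are log2 of the deposited intensities. A gene was called when its limma p-value, adjusted by Benjamini-Hochberg over 18769 probe sets, was under 0.05, and each gene is given by its brightest probe set. Differences are male minus female with the standard error (SE) of the fit, and n = 2 arrays per group throughout. Since each array is 1 animal, the p-values measure the spread between single animals.

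The arrays were first set against their labels. Array medians were 5.13 and 5.05 in double mutant males, against 4.87 and 4.80 in double mutant females, and lay at 5.10 and 5.12 in wild type males, against 4.85 and 4.81 in wild type females. On the leading principal component, which held 60.6% of the variance, scores were 53.4 and 26.7 for double mutant males, against -48.3 and -53.1 for double mutant females. Wild type males scored 59.3 and 59.6, so replicate 2 of the double mutant males stood apart from the other males and nearer to the females. Bap170 had 5.98 and 6.09 in double mutant males, against 5.77 and 5.69 in double mutant females, and wild type arrays lay between 6.88 and 7.35. Polybromo had 4.27 and 4.11 in double mutant males, against 3.96 and 4.11 in double mutant females, and wild type arrays lay between 5.09 and 6.30. Both mutated genes were therefore low in both sexes of the mutant, and neither differed between mutant males and females by the test (limma adjusted p = 0.404 and 0.688).

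Double mutant males and females differed at 1178 probe sets by limma, or 6.28% of those tested, of which 1067 (5.68%) were higher and 111 (0.591%) lower in males. Over 11982 genes, 956 (7.98%) were higher and 89 (0.743%) lower in males. At least 2-fold differences made up 868 of the higher and 51 of the lower genes, and 16-fold differences 88 and 1. That 1 gene was Yp3. The split depends on the scaling: 90.6% of called probe sets were higher in males as deposited, 71.1% after quantile normalization and 46.2% when each array was centred on its median, a step that moved the median of all probe sets by -0.26 and put it at -0.35. Differences below are on the deposited scale, and a direction that changed with scaling is named where it occurs.

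The sex labels were checked with the cascade that sets sex. The brighter probe set of dsx, the transcription factor gene at its end, had 3.49 and 3.43 in double mutant males, against 7.18 and 7.06 in double mutant females. In wild type it had 3.55 and 3.55 in males, against 7.43 and 7.19 in females, so all 4 males were low and all 4 females high. The difference of -3.66 ± 0.14 in double mutants and the -3.76 in wild type were both called (limma adjusted p = 6e-05 and 2.44e-05). A dimmer dsx probe set ran the other way, with 5.36 and 4.97 in double mutant males, against 4.27 and 4.36 in double mutant females (limma adjusted p = 0.0296). Transcripts of dsx are spliced differently in the sexes, and where these probes lie was not analysed here. For msl-2 the values were 5.97 and 6.13 in double mutant males, against 5.27 and 5.15 in double mutant females, a rise of 0.84 ± 0.15 (limma adjusted p = 0.0165).

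Upstream of dsx, tra had 7.23 and 7.01 in double mutant males, against 7.82 and 8.22 in double mutant females (-0.90 ± 0.20, limma adjusted p = 0.0475). The male and female arrays did not overlap for either msl-2 or tra, but both calls were marginal. Leaving out any 1 of the 4 double mutant arrays ended the call of msl-2 (limma adjusted p = 0.0564 to 0.109) and of tra (0.0659 to 0.211, and 0.0989 without either wild type female), quantile normalization and centring on the median ended that of msl-2 (0.118 and 0.0517), and a variance trend ended both (0.0657 for msl-2 and 0.0644 for tra). The brightest probe set of Sxl was not called, with 8.43 and 7.87 in double mutant males, against 8.70 and 8.62 in double mutant females. A dim one was, with 3.61 and 3.52 in males, against 4.40 and 5.20 in females (limma adjusted p = 0.0471). Of the 14 measured genes for sex determination and dosage compensation 1 rose and 2 fell, against 7.98% of all genes higher and 0.743% lower. The genes tra2, fru, ix and her were among the other 11, which were not called. All 7 measured Y-linked genes of 12 listed were dim, with array medians of 3.49 to 3.77 over the 8 arrays, and none was called. After quantile normalization 1 of them, ARY, was (0.59, limma adjusted p = 0.0485), as it was with a variance trend (0.0109) and a robust one (0.00957).

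**Figure D1:**
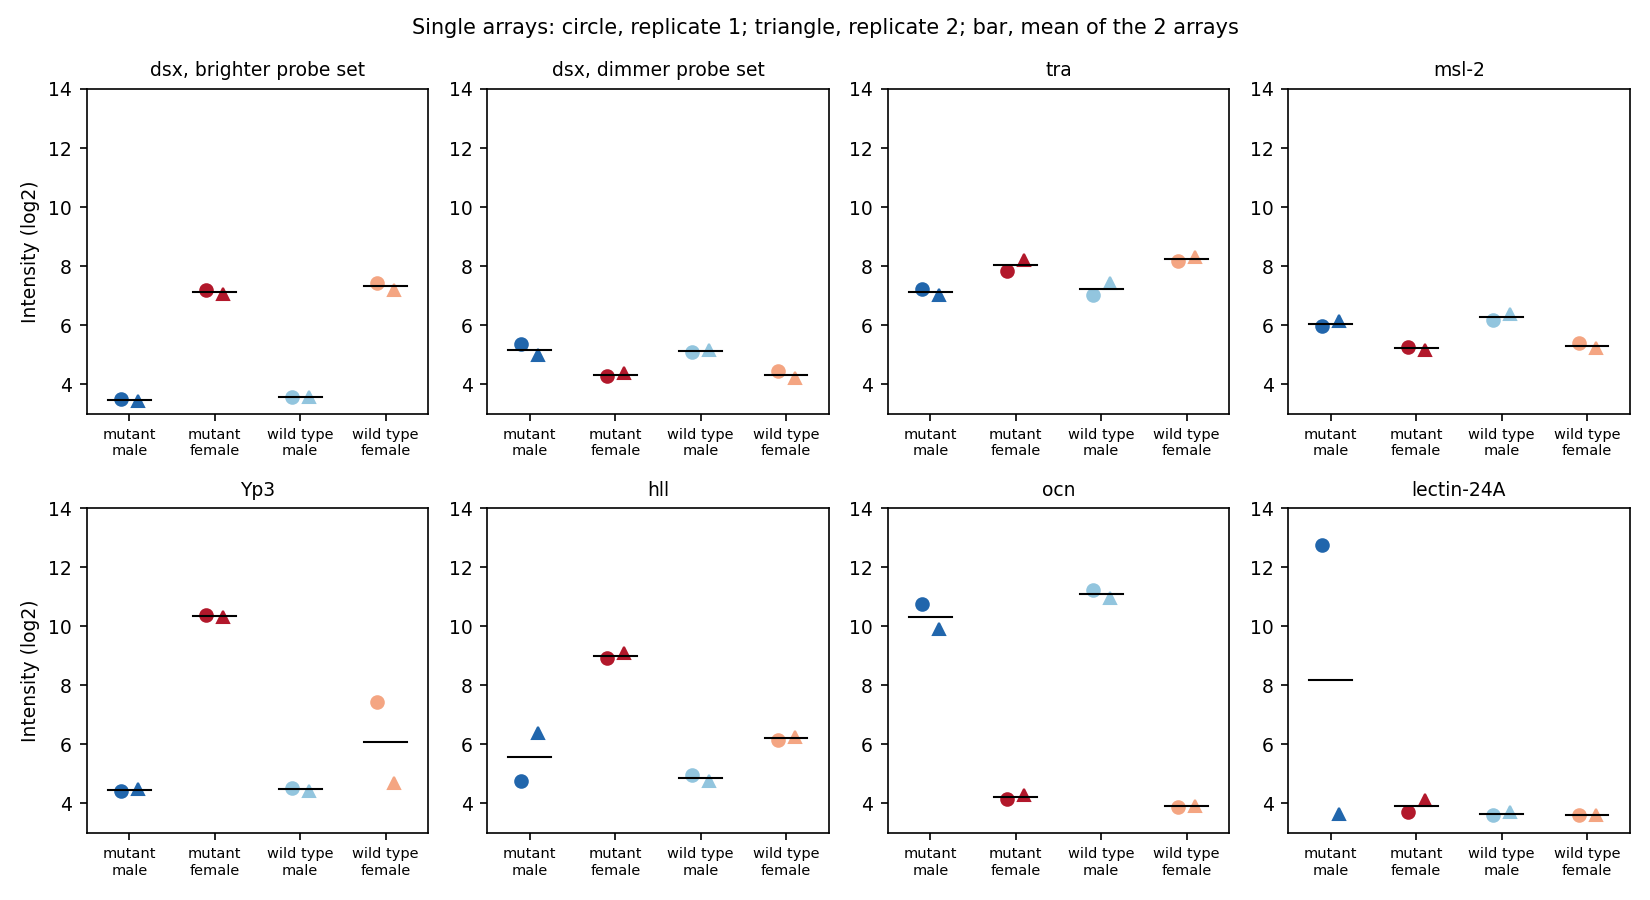
Log2 intensity (vertical axis) of 8 probe sets on each of the 8 arrays, by genotype and sex; symbols are single arrays and bars are means of 2. The brighter dsx probe set separates males from females in both genotypes, Yp3 reaches 10.38 and 10.30 in double mutant females alone, and lectin-24A is high on 1 array of a double mutant male.

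The largest rises in double mutant males were those of genes with dim signal in females. CG12699 had 11.69 and 10.81 in double mutant males, against 4.44 and 4.08 in double mutant females, and rose by 6.99 ± 0.28 (limma adjusted p = 6e-05). TrxT, the thioredoxin gene of the testis and a component of a Y chromosome loop of spermatocytes, had 10.51 and 9.74 in double mutant males, against 3.36 and 3.62 in females (6.63 ± 0.26). In both genes replicate 2 was the lower male array, and both male arrays lay far above both females. The gene ocn, which codes for a protein of the testis (ocnus), had 10.75 and 9.90 in double mutant males, against 4.14 and 4.27 in females (6.12 ± 0.27). The leucyl aminopeptidase genes S-Lap2 and S-Lap7, whose products are abundant in sperm, rose by 5.89 ± 0.25 and 5.79 ± 0.34. The other 5 of the 10 largest rises were CG9920 (6.76), CG15219 (6.30), CG31988 (5.95), CG31740 (5.95) and CG17376 (5.79), for which no role is given here. Among the 956 genes called higher, 646 have no name beyond a CG or CR number. The share of such names over all genes was not counted, so this is a description only.

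Females had little signal for most of these genes. The mean of the double mutant females lay under the median of all values (4.96) for 823 of the 956 genes called higher in males (86.1%), against 38.4% of all genes. At such dim signal the array compresses differences, so the sizes above may be understated. Of the 89 genes called lower, 36 (40.4%) had a male mean under that median. That share over all genes was counted for female means only (38.4%), so no trait of the lower genes is read from it.

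Groups of the spermatocyte programme were taken in order of their use. At its head, 6 of 13 measured genes for tMAC, tTAFs and related regulators rose and none fell, with a median of 0.98, against 7.98% of genes called higher and a median of -0.03 over all genes. The gene vis, a homeodomain gene whose product joins tMAC, had 8.11 and 7.85 in double mutant males, against 5.26 and 5.53 in double mutant females, and rose by 2.58 ± 0.23 (limma adjusted p = 0.000857). In wild type it had 5.01 and 5.64 in males, against 3.83 and 3.61 in females. Both mutant sexes were thus brighter than wild type of the same sex at this probe set, and its close copy achi was dim and not called. The tTAF genes sa (2.27 ± 0.46, adjusted p = 0.0316) and can (0.90 ± 0.16, adjusted p = 0.016) rose, as did the tMAC gene topi and kmg, which keeps spermatocytes from using promoters of other tissues. Without double mutant male replicate 1, 3 of the 13 were called. The calls of sa and can ended without it (adjusted p = 0.171 and 0.105) or without either double mutant female (0.091 to 0.156), that of sa also without either wild type female (0.0704). That of topi ended without male replicate 2 (0.0718) or female replicate 2 (0.107), and that of kmg without female replicate 2 (0.0529). The core tMAC genes aly and comr lay between 3.58 and 4.49 on the double mutant arrays and were not called.

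Of 8 genes for meiotic entry and translation in spermatocytes 5 rose, against 7.98% of all genes, with a median of 1.65. The gene fest, whose product works with Rbp4 to hold back translation of cyclin B mRNA in spermatocytes, had 8.92 and 8.17 in double mutant males, against 3.48 and 3.40 in females (5.10 ± 0.27, limma adjusted p = 9.88e-05). The RNA-binding protein gene bol (3.55 ± 0.30) and Rbp4 itself (2.06 ± 0.22) rose too, as did the translation factor genes eIF4E3 (4.78 ± 0.30) and eIF4G2 (1.24 ± 0.14). The cdc25 gene twe, whose product triggers the meiotic divisions, had 4.63 and 4.59 in double mutant males, against 4.54 and 4.43 in females, and was not called.

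Genes for building the sperm had the highest list median. Of 27 measured spermatid differentiation genes of 33 listed, 25 rose and none fell, against 7.98% of all genes higher and 0.743% lower, with a median of 3.72. The tubulin gene betaTub85D, whose product builds the meiotic spindle and the sperm tail, had 10.19 and 9.88 in double mutant males, against 4.91 and 5.13 in females (5.01 ± 0.19, limma adjusted p = 6e-05). Mst77F, which codes for a linker histone-like protein that packs sperm DNA, had 10.32 and 9.85 in double mutant males, against 4.68 and 5.31 in females (5.09 ± 0.26). Of the protamine genes ProtA rose by 5.16 ± 0.37 and ProtB by 2.47 ± 0.40, which was not called without either double mutant female (limma adjusted p = 0.08 and 0.074). Transcripts for sperm chromatin and the sperm tail are made in spermatocytes long before the proteins, which is known from adult testes. The 2 members not called were dj, at 4.91 and 4.34 in males and 3.63 and 3.79 in females (limma adjusted p = 0.099), and Mst36Fb, with a difference of -0.30. Both males lay above both females in 26 of the 27, against 22.7% of all genes.

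Of 13 measured comet and cup genes, which are transcribed after meiosis in adult testes, 5 rose, against 7.98% of all genes, with a median of 1.06. The gene c-cup had 7.28 and 6.59 in double mutant males, against 4.15 and 4.06 in females (2.83 ± 0.32, limma adjusted p = 0.00207), and schuy rose by 1.94 ± 0.20. The call of boly (1.70 ± 0.33) ended without double mutant male replicate 1 (adjusted p = 0.127) or without either female array (0.0629 and 0.145) and after quantile normalization (0.0585), and 2 of the 13 genes were called without male replicate 1. None of the 9 axonemal dynein genes was called, and their median difference was -0.00. Their array medians were 4.48 and 4.61 in double mutant males, against 4.33 and 3.99 in double mutant females, so this set was dim in both sexes.

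**Figure D2:**
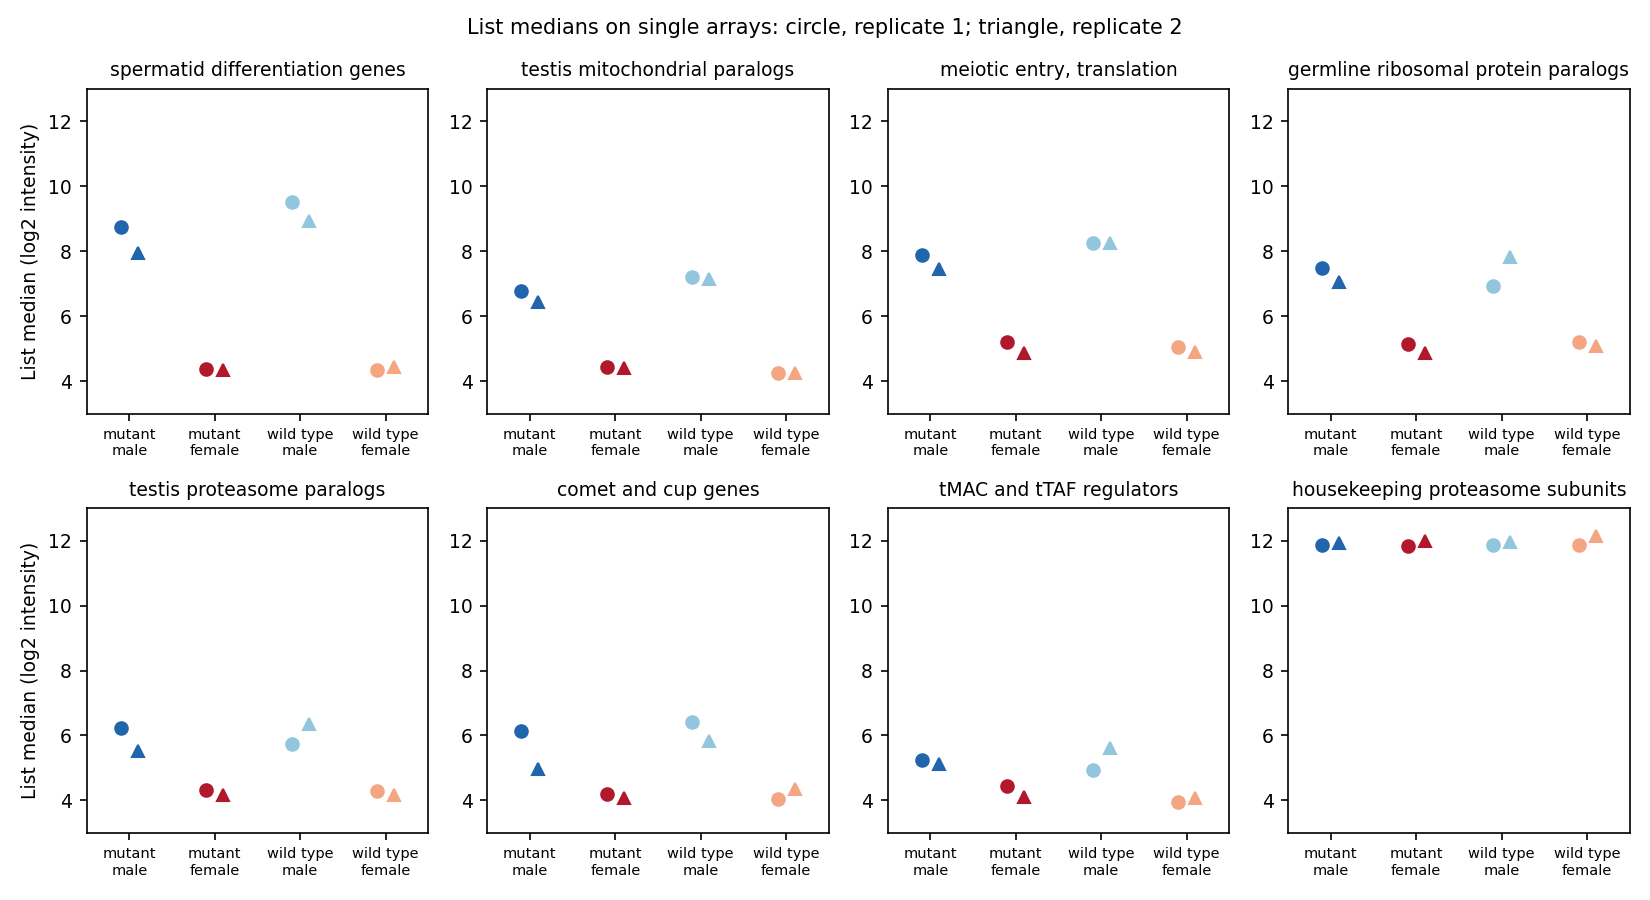
Median log2 intensity (vertical axis) of 8 gene lists on each array, by genotype and sex; circles are replicate 1 and triangles replicate 2. Spermatid genes have medians of 8.75 and 7.95 in double mutant males and 4.38 and 4.35 in double mutant females, while housekeeping proteasome subunits lie between 11.84 and 12.15 on all arrays.

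Testis copies of housekeeping genes rose while their partners did not change enough to be called. Of 17 testis paralogs of mitochondrial genes 14 rose (median 2.23), of 13 measured testis proteasome paralogs 8 rose (median 1.56), and of 9 measured germline paralogs of ribosomal proteins 5 rose (median 2.0). Over all genes 7.98% were called higher. COX4L, a testis copy of a cytochrome c oxidase subunit gene, had 8.78 and 8.10 in double mutant males, against 4.53 and 4.44 in females (3.96 ± 0.23, limma adjusted p = 0.000116). RpL22-like rose by 2.09 ± 0.21, RpS5b by 2.0 ± 0.24 and the proteasome gene Prosbeta2R2 by 2.67 ± 0.39 (limma adjusted p = 0.00707, and 0.0631 without female replicate 2). None of 16 measured housekeeping proteasome subunits (median -0.02) and none of 14 cytoplasmic ribosomal protein genes (median -0.02) was called.

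Pairs of a testis gene and its general partner were then set side by side, from a list of 45 pairs drawn up after the values were seen, so that their count is a description. Both genes were measured in 37 pairs. The testis gene was called higher in 35 and the partner in none, and the difference was larger for the testis gene in all 37. The testis genes had a median difference of 2.23 and ranged between 0.20 and 5.31, while the partners had a median of 0.02 and ranged between -0.31 and 0.56. Hsp60C, a mitochondrial chaperone gene needed in spermatogenesis, had 9.16 and 9.07 in double mutant males, against 3.89 and 3.72 in females. The 2 testis genes not called were the tTAF genes nht and mia.

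**Figure D3:**
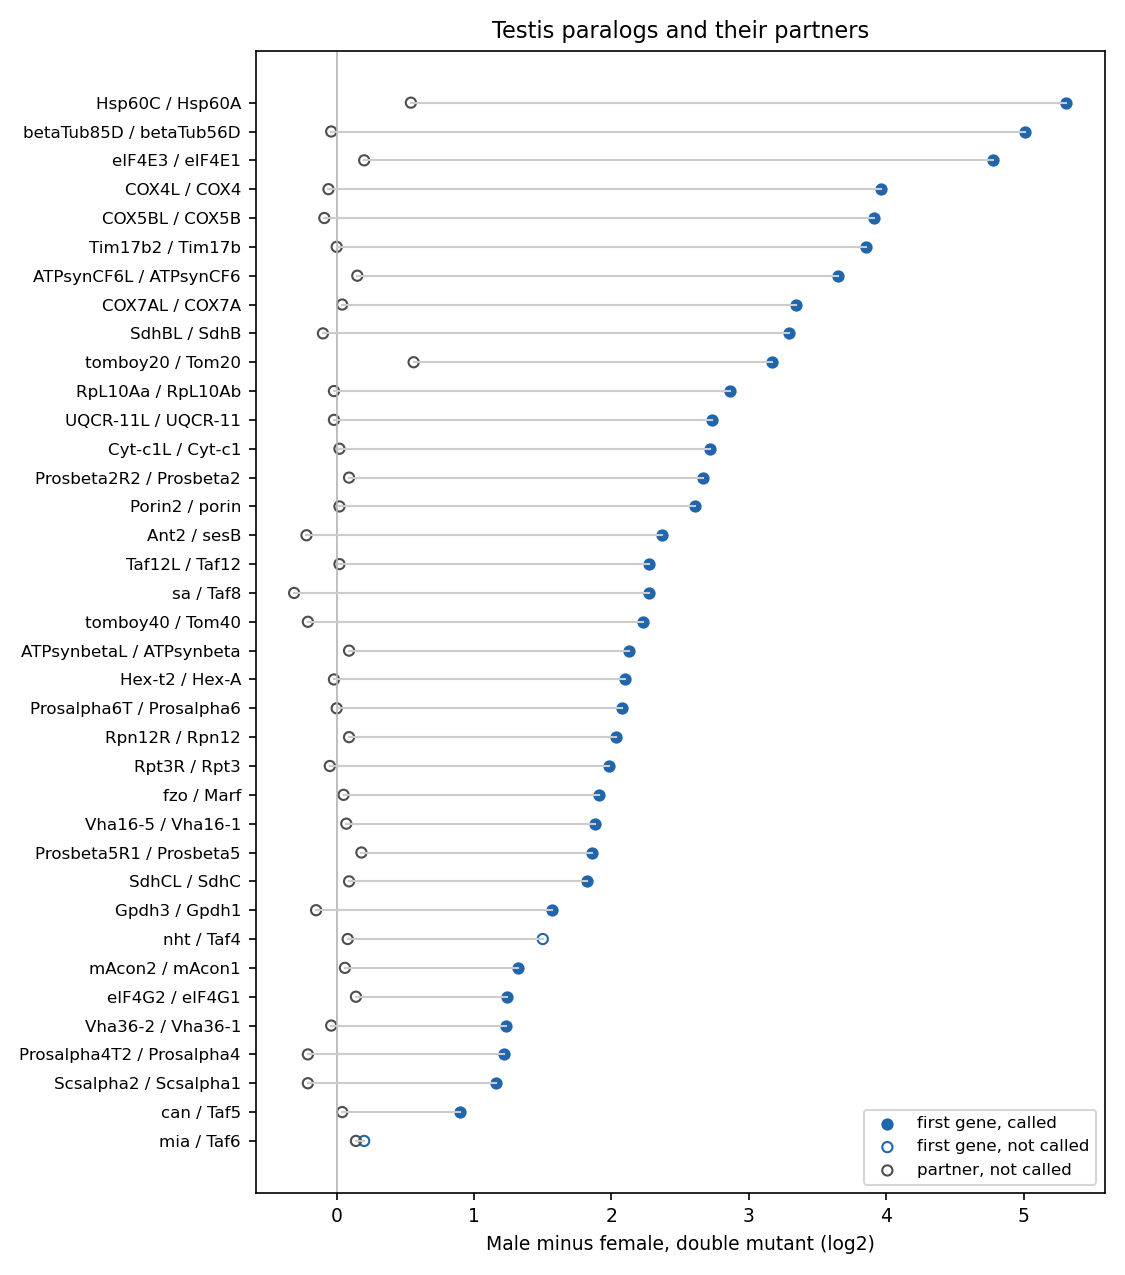
Male minus female difference in double mutants (log2, horizontal axis) for 37 pairs of a testis gene (blue) and its general partner (black), ordered by the testis gene; filled points were called. The 35 called testis genes lie to the right and no partner, between -0.31 and 0.56, was called.

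Genes of the germline and gonad that both sexes use followed. Of 22 measured germline genes of both sexes 4 rose (mael, squ, bgcn and aub) and none fell, against 7.98% of all genes higher and 0.743% lower, and the list median was -0.01. The gene mael, which acts in piRNA silencing of transposons, had 5.96 and 5.79 in double mutant males, against 4.41 and 4.34 in females (1.5 ± 0.18, limma adjusted p = 0.00262). The calls of bgcn, a partner of bam in ending germ cell amplification, of aub, a Piwi-family gene, and of squ each rested on single arrays. They ended without male replicate 1 (adjusted p = 0.0985, 0.0532 and 0.205) or female replicate 2 (0.131, 0.116 and 0.12). Female replicate 1 mattered for bgcn (0.0795) and squ (0.232), male replicate 2 for aub (0.0964), and either wild type female for aub (0.0506) and squ (0.0599). The call of aub also ended after quantile normalization (0.0664) and centring (0.0551). The germ cell gene vas lay between 3.51 and 3.70 on the double mutant arrays. None of 8 measured somatic gonad genes, tj, eya and zfh1 among them, was called, with a median of -0.06. Of 17 measured cell cycle and replication genes the cyclin gene CycB3 alone was called (0.86 ± 0.16, limma adjusted p = 0.0228), and not without male replicate 2 (0.106), female replicate 1 (0.145) or either wild type female (0.0547). Nor was it called after quantile normalization (0.0647), after centring (0.065), or with a variance trend (0.0573) or a robust one (0.0513).

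**Figure D4:**
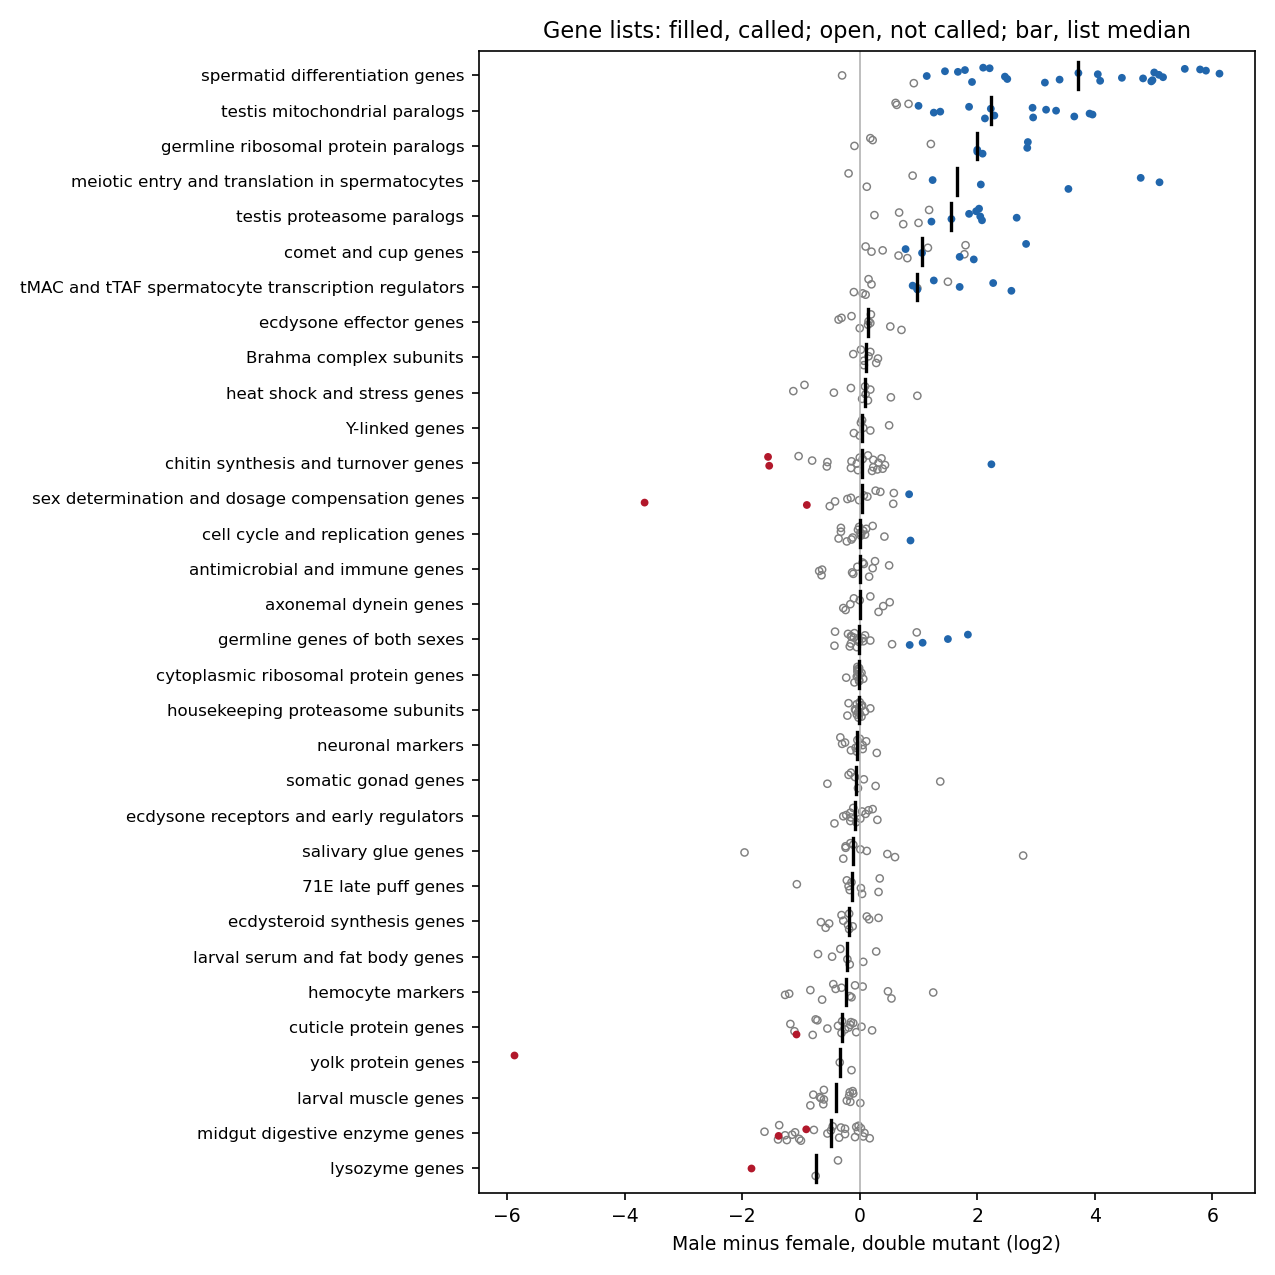
Male minus female difference in double mutants (log2, horizontal axis) for the measured members of 32 gene lists, ordered by list median (bars); filled points were called (blue higher, red lower in males). In 7 lists of the spermatocyte programme medians lie between 0.98 and 3.72. These are the tMAC and tTAF, meiotic entry, spermatid, comet and cup, testis mitochondrial, testis proteasome and germline ribosomal lists. The other lists, with those of axonemal dynein and Y-linked genes among them, centre near or below 0.

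The 2 arrays of double mutant males were not alike in this programme. Replicate 2 was below replicate 1 in 884 of the 956 genes called higher (92.5%, against 51.2% of all genes), by a median of 0.57, while the median gap between the wild type males over these genes was -0.01. The spermatid list had medians of 8.75 and 7.95 in double mutant males, against 4.38 and 4.35 in double mutant females, and 9.53 and 8.94 in wild type males. The wild type males stood in the other order for testis proteasome paralogs (5.72 and 6.34) and germline ribosomal protein paralogs (6.92 and 7.82). Their median gap of -0.01 therefore hides gaps of both signs. The widest gaps among called genes included CG30192, with 7.21 and 5.29 in double mutant males, lncRNA:CR32835, with 8.4 and 6.67, and CG31406, with 7.38 and 5.67. Both males were nevertheless above both females at each of the 3, though without either double mutant female CG30192 (limma adjusted p = 0.14 and 0.141) and CG31406 (0.0984 and 0.0829) were not called, nor was CG30192 without either wild type female (0.0663). Without replicate 2, 876 of the 956 genes stayed called, and without replicate 1, 671 did. The 3′ minus 5′ difference of the actin control, a measure of RNA integrity, was 0.58 and 0.23 in double mutant males, against 0.62 and 0.45 in double mutant females. The median of 9 spiked-in control probe sets was 8.45 and 8.72 in these males, against 9.16 and 8.94 in these females. The part of either value in the result was not tested.

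On the deposited scale, genes higher in double mutant females were few. Probe sets lower in males numbered 111 there, 403 after quantile normalization and 1143 after centring, against 1067, 991 and 981 higher. Yp3, a yolk protein gene that the adult female fat body and ovary express, had 4.42 and 4.50 in double mutant males, against 10.38 and 10.30 in double mutant females (-5.88 ± 0.73, limma adjusted p = 0.00342). In wild type it had 4.53 and 4.42 in males, against 7.42 and 4.70 in females, so the wild type females differed from each other and both lay below the mutant females. The double mutant minus wild type difference of the sex differences was -4.30 ± 1.04, with an unadjusted p = 0.00433 and a limma adjusted p = 0.766. Without wild type female replicate 1 it was -5.66 (adjusted p = 0.00417), a value that rests on 1 wild type female assumed to vary like the other groups. The other yolk protein genes did not follow, with Yp1 between 3.65 and 4.11 and Yp2 between 4.24 and 4.79 on the double mutant arrays, and neither was called.

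The gene hll had 4.77 and 6.39 in double mutant males, against 8.92 and 9.09 in double mutant females (-3.42 ± 0.45, limma adjusted p = 0.00452). It codes for an acyl-CoA synthetase-like enzyme. CG6296 had 5.00 and 5.26 in double mutant males, against 7.76 and 7.74 in double mutant females (-2.62 ± 0.14, adjusted p = 0.000101). The wild type arrays lay between 3.90 and 4.12, and neither wild type sex stood apart. The difference of the differences was -2.54 ± 0.20 (limma adjusted p = 0.0917), and it passed with a variance trend (0.0375), with a robust one (0.0154) and without double mutant male replicate 2 (-2.67, 0.018). The other largest falls were those of CG12057 (-2.59), CG33333 (-2.58), CG42369 (-2.21), CG12115 (-2.16), CG9259 (-2.13) and CG32249 (-2.10). The call of CG33333 ended without male replicate 1 (adjusted p = 0.166) or without any of the other arrays except male replicate 2, and that of CG12115 without female replicate 2 (0.0636). That of CG9259 ended without male replicate 1 (0.0636) or female replicate 1 (0.0642), and that of CG32249 without male replicate 1 or any female of either genotype (limma adjusted p = 0.0608 to 0.187).

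Among groups that serve feeding and the cuticle, single members fell. Of 27 measured midgut digestive enzyme genes 2 fell, Jon66Ci (-1.38 ± 0.22, limma adjusted p = 0.0114) and zetaTry (-0.91 ± 0.20, adjusted p = 0.0405), which code for serine proteases, against 0.743% of all genes called lower. The list median was -0.49, against -0.03 over all genes. In 17 of the 27 both males lay below both females, against 27.6% of all genes, and the summed intensity of the list was 31540 and 40090 in double mutant males, against 44540 and 51740 in double mutant females. Without male replicate 1 no member was called (adjusted p = 0.053 and 0.229), and without male replicate 2, 4 were. Leaving out a double mutant female also ended both calls (0.0632 to 0.196), and leaving out a wild type female that of zetaTry (0.0668). The lysozyme gene LysS fell by 1.85 ± 0.41 (limma adjusted p = 0.0474), a call lost without any 1 double mutant array or wild type female (0.0535 to 0.229) and after quantile normalization (0.0517). The chitinase genes divided: Cht12 rose, with 6.88 and 6.33 in double mutant males, against 4.28 and 4.45 in females, while Cht9 fell by 1.54 ± 0.23 (limma adjusted p = 0.00801, and 0.0631 without female replicate 2) and the chitinase-like growth factor gene Idgf5 by 1.56 ± 0.18. Of 18 measured cuticle protein genes Lcp65Ac fell (-1.09 ± 0.20, adjusted p = 0.0182, 0.117 without male replicate 1 and 0.102 without female replicate 2). Cpr66Cb (-1.18) and Lcp9 (-1.11) were not called as deposited, but were after quantile normalization (limma adjusted p = 0.0211 and 0.0303) and after centring (0.0153 and 0.0187). In 12 of the 18 both males lay below both females, against 27.6% of all genes.

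On the deposited scale, the hormone system that starts metamorphosis did not differ by the test. None of 14 measured ecdysone receptors and early regulators (median -0.08), 10 ecdysone effector genes (0.14), 12 ecdysteroid synthesis genes (-0.19) or 9 late puff genes of 71E (-0.14) was called. Nor was any of 11 salivary glue genes (-0.11), 7 measured larval serum and fat body genes (-0.21), 14 hemocyte markers (-0.24), 12 antimicrobial and immune genes (0.01), 14 larval muscle genes (-0.41) or 13 neuronal markers (-0.04). Among members named by rule, the synthesis gene sro was called lower after quantile normalization (-0.79, limma adjusted p = 0.027) and after centring (0.0445). Centring alone also gave calls to Cyp6t3 (-0.54, limma adjusted p = 0.0498), Sgs1 (-0.54, 0.0446) and the hemocyte marker crq (-0.67, 0.0483). Both males lay below both females in 10 of the 14 larval muscle genes and 7 of the 12 synthesis genes, against 27.6% of all genes. They lay above in 1 synthesis gene. Of the 32 lists 17 had no called member. A p above the threshold does not show equal levels: in simulated data the same fit called 50% of log2 differences of 1 and 96% of differences of 2. In that simulation 200 probe sets were changed, against 1178 called in these data, so its rates need not hold here.

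Within the Brahma complex none of 8 measured subunits was called in double mutants (median 0.11). The shared subunit gene mor had 9.19 and 9.41 in double mutant males, against 8.87 and 9.17 in double mutant females, and 8.47 and 8.90 in wild type males, against 9.38 and 9.24 in wild type females.

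The same comparison was made in wild type. Wild type males and females, on arrays the double mutant comparison does not use, differed at 1483 probe sets, or 7.9%, of which 1305 (6.95%) were higher and 178 (0.948%) lower in males, and at 1326 genes, 1181 (9.86%) higher and 145 (1.21%) lower in males. Genes higher in males of both genotypes numbered 903, which is 94.5% of those higher in double mutant males and 76.5% of those higher in wild type males. The 2 fits share a variance estimate per probe set. Of the 956 genes 177 had a larger difference in double mutants than in wild type, and the medians over them were 2.02 in double mutants and 2.45 in wild type. Since these genes were chosen on the double mutant difference, the 1181 genes chosen on wild type are given too, with medians of 1.73 in double mutants and 2.14 in wild type. Over the 956 genes replicate 2 of the double mutant males lay below replicate 1 by a median of 0.57, and its part was not tested. List medians were larger in double mutants for tMAC and tTAF (0.98, against 0.69), meiotic entry (1.65, 1.51) and germline ribosomal genes (2.0, 1.75). They were smaller for spermatid (3.72, against 4.49), comet and cup (1.06, 1.14), testis proteasome (1.56, 1.7) and testis mitochondrial genes (2.23, 2.5).

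Called lower in both genotypes were 18 genes, or 20.2% of those lower in double mutant males and 12.4% of those lower in wild type males. The 89 genes lower in double mutant males had a median of -1.09 in double mutants and -0.51 in wild type, and 86 of them had the same sign in wild type. As the 89 were chosen on the double mutant difference, the 145 genes lower in wild type males are given too. Their medians were -0.30 in double mutants and -0.88 in wild type, and 116 of them had the same sign in double mutants. The share of all genes with the same sign in both genotypes was not counted. No gene was called in opposite directions.

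**Figure D5:**
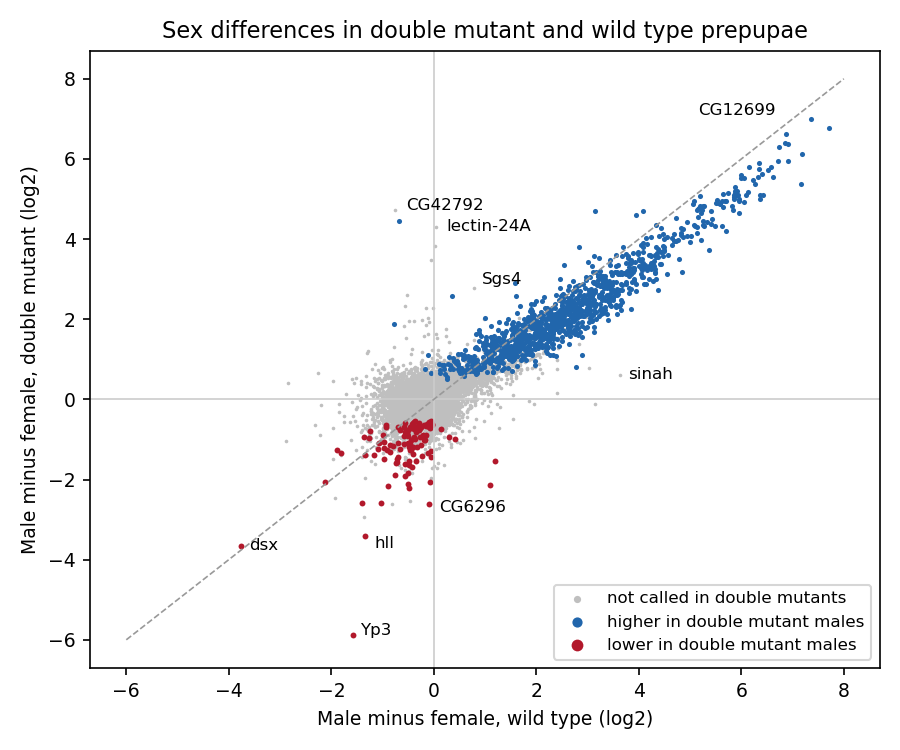
Male minus female difference (log2) in double mutants (vertical) against wild type (horizontal) for 18769 probe sets; colours mark calls in double mutants and the dashed line marks equal differences. Most of the 1067 probe sets higher in double mutant males lie under the line, and Yp3, hll and CG6296 lie below it among the lower ones.

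The test of the difference itself called no probe set at an adjusted p under 0.05 in limma. An unadjusted p under 0.05 was reached by 1184 of the 18769 probe sets tested, and the lowest adjusted p was 0.0917. Some probe sets pass such an unadjusted cut without any true difference, so this count is not read as a result. With a variance trend 5 probe sets passed and with a robust trend 9. Without double mutant male replicate 2 the difference of the differences was 10.45 at CG42792, 8.82 at lectin-24A, 8.09 at TotC and 7.21 at TotZ. These genes were high on male replicate 1 and on no other array, so the values rest on that animal. CG6296 (-2.67) and hll (-2.89) went the other way. In the fit of all arrays the 5 genes with the lowest p were CG6296, given above, and 4 that were brighter in wild type males. CG14974 had 5.04 and 4.69 in double mutant males, against 4.01 and 4.11 in double mutant females, and 6.58 and 6.74 in wild type males, against 3.82 and 3.94 in wild type females (difference of the differences -1.98 ± 0.23, limma adjusted p = 0.154). Its male bias was present in both genotypes and was smaller by value in double mutants, where its call ended without male replicate 1 (adjusted p = 0.165), any female array (0.0627 to 0.169) or after centring on the median (0.0612). Ude, which codes for a uracil-DNA degrading factor, had 4.39 and 4.15 in double mutant males, against 4.29 and 4.32 in double mutant females, and 5.72 and 5.87 in wild type males, against 3.83 and 4.05 in wild type females (-1.88 ± 0.21, adjusted p = 0.154).

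For CR11023 and CG4998, only the wild type males were above the other groups by value. CR11023 had 5.32 and 5.6 there and between 3.48 and 3.81 on the other 6 arrays (-2.08 ± 0.20, limma adjusted p = 0.154). Picked after the values were seen, sinah, a relative of the ubiquitin ligase gene sina, was brightest in wild type males, while both double mutant males lay closer to the females and above all 4 of them. It had 5.4 and 4.68 in double mutant males, against 4.34 and 4.53 in double mutant females, and 8.24 and 7.87 in wild type males, against 4.31 and 4.52 in wild type females (-3.04 ± 0.36, limma adjusted p = 0.168). With a robust variance trend it passed (adjusted p = 0.0254), as did CR11023 (0.00673).

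Genes were placed on chromosomes with a Release 6 gene table. Of 1873 X-linked genes 118 (6.3%) were higher and 20 (1.07%) lower in double mutant males, against 833 (8.37%) and 69 (0.693%) of 9950 genes on the large autosomes. The highest share, 10.6%, was on 2L, and none of 65 genes on chromosome 4 was called. The median difference in double mutants was -0.10 on the X and -0.02 on the large autosomes, and in wild type -0.23 and -0.14. These shares were not tested against each other.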

How the data were processed

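RNA of single white prepupae was labelled by a one-cycle protocol and hybridised to Affymetrix arrays, per the labels' protocols. The deposited intensities are linear and were made by RMA, per the submitters' processing notes. The sources used here do not give its software or scaling. Array medians differed between the sexes, so scaling can move every sex difference, and dim signal is compressed.

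Of 18952 probe sets 183 controls were dropped, and log2 of the other 18769 was tested. The platform annotation names 1 gene for 13647 of them, several for 402 and none for 4720. Against the gene table of Release 6, symbols changed at 0 probe sets and 103 were unmatched. A gene is shown by its brightest probe set over the 8 arrays (11982 genes). No sequence or coordinate is printed.

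The 4 group means were fitted with limma 3.58.1 (lmFit, eBayes, R 4.3.3; 4 residual and 3.03 prior degrees of freedom), with Benjamini-Hochberg adjustment at 0.05. Contrasts were male minus female in double mutants, the same in wild type, and their difference. The comparison, the 32 gene lists and the naming rule were chosen with earlier results of these data known. The rule took Bap170 and polybromo, the 10 largest rises and 10 largest falls without overlap between arrays, up to 3 members per list, the 5 lowest interaction p-values, sex check genes and the 5 widest gaps between the double mutant males. Other names were chosen after their values were seen. On simulated data with 200 changed probe sets, 3.91% of calls were false, and 0%, 50%, 96% and 100% of log2 changes of 0.5, 1, 2 and 4 were recovered. Alternatives covered scaling, dim probe sets, variance prior, probe sets per gene, arrays fitted, a replicate block, array weights, a 2-fold threshold and leaving out each array. The number of arrays limits precision.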

Additional observations from a re-analysis of the deposited data

Results flagged for a closer look

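At 6 of the genes named by rule, both males lay on one side of both females in double mutants and on the other side in wild type. The values here are the double mutant minus the wild type male minus female difference, and none passed limma's test of that difference (adjusted p = 0.154 to 0.766). CG9259 had 4.26 and 4.74 in double mutant males, against 7.02 and 6.25 in double mutant females, and 5.34 and 6.11 in wild type males, against 4.59 and 4.66 in wild type females, a difference of the differences of -3.23 ± 0.48 (unadjusted p = 0.000253, limma adjusted p = 0.474). It passed with a robust variance trend (adjusted p = 0.0388). CR11023 gave -2.08 and CG4998 gave -1.46, and both passed with a variance trend (adjusted p = 0.0214). In both the double mutant arrays lay between 3.44 and 3.81, so their ordering within double mutants is one of dim signal.

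Smaller values came from mor, a core Brahma subunit gene, at 0.91, from cact, the inhibitor of Toll signalling, at 0.47, and from RpL27, a ribosomal protein gene, at -0.35. Another probe set of cact went the other way, at -0.69 ± 0.21 (limma adjusted p = 0.766), so the direction for this gene is not settled. Over all genes, both males lay above both females in 22.7% and below them in 27.6% in double mutants, so an ordering within a single genotype is common on these arrays. The share of all genes with opposite orderings in the genotypes was not counted. CR11023 and CG4998 were named for a low p in the test of the difference, so their presence here follows in part from the naming rule.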

How the results depend on the processing

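The count of probe sets differing between double mutant males and females was 1178, and it was 2124 after centring each array on its median, 681 to 1308 when single arrays were left out, and 1132 with the replicate number as a block. The labels do not say that a number pairs the animals, and deviations of same-numbered double mutant males and females correlated at -0.304, so the crossed pairing was added after seeing the data (1039 called). Probe sets higher in males numbered 636 to 1187 without single arrays. Those lower in males, 111 in all, numbered 403 after quantile normalization, 1143 after centring, 174 with a robust variance trend, 44 with the double mutant arrays alone, 57 at 2-fold and 34 to 121 without single arrays. Fits without 1 array treat the lone animal as varying like the other groups. The test of the difference from wild type called 0, or 5 with a variance trend, 9 with a robust one and 0 to 20 without single arrays. The wild type comparison called 1483, or 5240 after centring and 943 to 1454 without single arrays. Of 100 genes on the 7 spermatocyte lists 68 were called higher, and 48 to 73 without single arrays. On the other lists 16 members were called, 29 after centring and 6 to 18 without single arrays. Of the 56 called genes among 124 named by rule, 35 were called in all settings in which they were tested, 21 lost the call in at least 1, and none changed sign while called. A fit of the double mutant arrays alone ended 15 calls and the replicate block 4 (tra, zetaTry, LysS and CG14974, adjusted p = 0.0518 to 0.0689). Of those not called, 14 gained a call in at least 1 setting, 8 of them after centring. The causes were not tested. With 2 animals per group, differences of log2 0.5 were not recovered in simulation (0%), where fewer probe sets were changed than were called here. Dim signal bounds what can be seen for Y-linked, axonemal dynein and early spermatocyte genes. The Y-linked and axonemal dynein lists are not among the 7 spermatocyte lists.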

Other observations

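Families were sorted by symbol after the values were seen, as a description, and their counts stand against 7.98% of all genes higher and 0.743% lower in double mutant males. All 4 measured radial spoke head genes (Rsph1, Rsph3, Rsph4a and Rsph9), which code for parts of the sperm tail axoneme, rose in double mutant males by 2.07 to 2.64. Of 11 tubulin tyrosine ligase-like genes 6 rose, with the highest value at TTLL6A (2.73 ± 0.20, limma adjusted p = 0.000309), and 4 of the 6 calls held without each single array. Those of TTLL5 and TTLL1B ended without any 1 double mutant array or wild type female (adjusted p = 0.0538 to 0.211). Of 4 dynein assembly factor genes 3 rose, with Dnaaf6 at 9.26 and 8.45 in double mutant males, against 4.24 and 4.18 in females. The calls of Dnaaf3 and Dnaaf5 ended without male replicate 1 (0.0856 and 0.0638) or female replicate 2 (0.0909 and 0.0911), and that of Dnaaf3 also without female replicate 1 (0.0818). Of 6 measured eIF4E genes, whose products bind the mRNA cap, 4 rose (eIF4E3, eIF4E4, eIF4E5 and eIF4E7), while the general eIF4E1 differed by 0.20. The call of eIF4E4 ended without female replicate 1 (adjusted p = 0.0612). Of 31 vacuolar ATPase genes 5 rose and none fell, and their median was 0.08. Without male replicate 1 or without female replicate 2, Vha68-3 was the 1 gene of these still called (the others had adjusted p = 0.0643 to 0.176). Without female replicate 1, 2 were called, without either wild type female 3, and without male replicate 2 or either wild type male 4. The dsRNA-binding protein gene blanks had 9.35 and 8.92 in double mutant males, against 4.34 and 4.55 in females, and the bromodomain genes tbrd-1 and tbrd-2 rose by 3.18 ± 0.38 and 1.82 ± 0.21.

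Of 83 cytochrome P450 genes 4 fell and none rose, with Cyp4d1 at 8.77 and 9.19 in double mutant males, against 10.53 and 10.63 in females (-1.60 ± 0.30, limma adjusted p = 0.0214). Acyl-CoA binding protein genes fell at 3 of 6, maltase genes at 2 of 10 and alkaline phosphatase genes at 2 of 12, with Mal-A8 at -1.89 and Alp6 at -1.62. These calls rested on single arrays, apart from that of Alp6, which held without each. Without male replicate 1 or without female replicate 2, no other gene called in these 4 families stayed called (adjusted p = 0.0569 to 0.171). Without female replicate 1 the calls left were 1 P450 gene, 1 acyl-CoA binding protein gene, 1 maltase gene and Alp6, and without male replicate 2 they were 2, 1, 1 and 2 in the same order. Without either wild type female they were 2, 1, 1 and 2, and without either wild type male 3, 2, 2 and 2. Of 13 carbonic anhydrase genes 4 rose, of which CAH13 alone held without each single array. The other 3 were CAH4, CAH14 and CAH15, whose calls all ended without female replicate 2 (0.0826 to 0.0946), and some without male replicate 1, male replicate 2 or female replicate 1 (0.0568 to 0.102).

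Ilp2, an insulin-like peptide gene of the brain, had 4.76 and 4.67 in double mutant males, against 5.28 and 5.54 in females (-0.69 ± 0.15, limma adjusted p = 0.0404), a call lost without any 1 of the 8 arrays (0.054 to 0.195).

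A single double mutant male, replicate 1, carried signals found on no other array. TotZ and TotC, which code for humoral stress factors, had 10.94 and 12.16 there and at most 4.45 on the other 7 arrays. The C-type lectin gene lectin-24A had 12.76 there and at most 4.10 elsewhere, and CG42792 had 13.63 and at most 4.76. None was called as a sex difference (limma adjusted p = 0.416 to 0.443). Sgs4, a salivary glue gene, had 9.61 on the same array and 4.07 in the other double mutant male, against 4.20 and 3.92 in double mutant females, while the wild type arrays lay between 9.35 and 10.58. Without replicate 2 its sex difference was 5.55 (adjusted p = 0.000149), and as deposited it was 2.78 ± 1.5 (adjusted p = 0.40).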
